A study of Mus musculus with 12 samples.

Results

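The BCL2 family and death receptor genes examined here were Tnfrsf10b, Bbc3, Pmaip1, Bcl2l11, Bid, Bcl2, Bcl2l1, Mcl1, Bax and Bak1. They were measured by all probe sets whose only gene symbol in the platform annotation was one of these 10 genes, which gave 29 of the 45101 probe sets on the array. They covered 9 of the 10 genes, of 18193 genes named on the array; the annotation used here named no probe set for Bax, which was not analysed here. The RNA came from 3T3-L1 adipocytes, a mouse fibroblast line turned into fat cells by insulin, dexamethasone and the phosphodiesterase inhibitor IBMX, and was read on 12 expression arrays. The cells were used on days 8 to 10 after 12 h without serum, in medium containing albumin. There were 4 groups of 3 arrays: the solvent DMSO, and the plant alkaloid berberine at 5 µM for 3, 6 or 12 h. No label states how long the DMSO cells were incubated, so berberine and time in culture cannot be told apart in the comparisons with DMSO, and all of these comparisons share the same 3 DMSO arrays.

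The BCL2 family decides whether the outer membrane of the mitochondrion is opened during apoptosis. The effectors BAX and BAK form pores in it, pro-survival members such as BCL2, BCL-XL (the product of Bcl2l1) and MCL1 hold the effectors in check, and BH3-only members such as PUMA (Bbc3), NOXA (Pmaip1), BIM (Bcl2l11) and BID release or activate them. Tnfrsf10b encodes the mouse death receptor for TRAIL, which starts the pathway from the cell surface through FADD and caspase-8. Tnfrsf10b and the BH3-only genes are textbook targets of p53, of FOXO factors or, under endoplasmic reticulum stress, of the transcription factor CHOP (Ddit3).

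Expression is given as the deposited log2 signal. A probe set was tested where at least 3 of the 12 arrays reached the median of all values, 5.77, used as a detection threshold. Signals of different probe sets are not on 1 scale, so levels are compared between arrays and not between genes. Of the 29 member probe sets, 22 were tested, from 8 genes. The remaining 7 were the single Pmaip1 probe set, 2 of 5 for Bcl2, 3 of 4 for Bcl2l1 and 1 of 2 for Bak1. Each of these 7 reached the threshold on 0 to 2 arrays. Over the 12 arrays Bcl2 spanned 4.22 to 5.81 on 1440770_at and 4.60 to 5.98 on 1443837_x_at, and Bak1 2.59 to 6.01 on 1425716_s_at. Bcl2l1 spanned 2.16 to 6.04 on 1420887_a_at, 1.37 to 5.09 on 1426050_at and 3.55 to 5.72 on 1426191_a_at. Differences were tested with limma on all 25053 tested probe sets, and an adjusted p under 0.05 counts as a call.

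The arrays held RNA of adipocytes: of the 7 adipocyte markers with a probe set, 6 lay above the threshold on all 12 arrays. Of 6 preadipocyte or fibroblast markers, 5 did so too, while 3 of 6 macrophage and 3 of 5 endothelial markers were above it on no array. The summed signal of the fibroblast markers spanned 15.37 to 15.63 with DMSO and 15.52 to 15.60 at 12 h, and that of the adipocyte markers 17.05 to 17.41 and 17.24 to 17.38; these sums weigh bright probe sets most, and single markers moved. Of the 7 tested adipocyte markers, 3 fell and 1 rose at 12 h. The lipid droplet gene Cidec changed by -1.44 on the log2 scale (adjusted p = 8.21e-10), the adipokine gene Lep -2.06 (adjusted p = 0.0288) and the adipocyte transcription factor gene Cebpa -0.59 (adjusted p = 3.06e-05), while the lipase gene Lpl had 0.32 (adjusted p = 0.0198). Of the 5 tested fibroblast markers, Pdgfra and Col1a1 fell (log2 changes of -0.28 and -0.35, adjusted p = 0.00791 and 0.00535). Their part in the results was not tested. In such bulk samples a change in the number of cells of a type and one in RNA per cell cannot be told apart. Whether the arrays of a group stem from separate cultures is not stated, so the p-values reflect the spread between arrays, part or all of which may be technical.

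Few member probe sets were called against DMSO. With 22 probe sets from 8 genes, the counts cannot show whether members moved less often than the array as a whole. At 3 h 0 of the 22 member probe sets were called by limma (2 at an unadjusted p under 0.05), where 0.998% of all probe sets were called. At 6 h 1 member probe set was called, of Bcl2, against 10.5% of all probe sets (5.3% higher). At 12 h 3 were called, 1 of Tnfrsf10b and 2 of Mcl1, against 23.3% of all probe sets. All of these 4 calls were rises, and 0 member probe sets were called lower. Over all probe sets 11.5% rose and 11.8% fell at 12 h. Both Tnfrsf10b probe sets entered the test through berberine arrays that reached the threshold. The direction of the Tnfrsf10b call is therefore a description and not independent support for a rise. By the moderated F test over the 3 times, 2 of the 22 differed from DMSO, both of Mcl1, against 19.4% of all probe sets; without DMSO replicate 3 or 12 h replicate 2 or 3 it was 1. Leaving out 10 of the 12 arrays, one at a time, brought the count at 6 h to 0, and leaving out 6 h replicate 3 brought it to 2. Without DMSO replicate 1 the count stayed at 1, but the gene changed. The Bcl2 call was lost (adjusted p = 0.12) and Tnfrsf10b was called on 1421296_at (adjusted p = 0.0196). The arrays with berberine did not overlap those with DMSO for 5 member probe sets at 3 h, all higher, where 17.4% of all probe sets did not overlap in either direction. This held for 6 at 6 h, 5 of them higher, and for 8 at 12 h, all higher. Over all probe sets it held for 27.2% and 36.2%, in either direction, close to the share of the 22 members at both times. No share by direction was computed over all probe sets, so the direction of the members is a description. The higher ones at 6 and 12 h include both Tnfrsf10b probe sets. The median change at 12 h was 0.14 on the log2 scale over the members and 0.01 over all probe sets, and the median size of the change was 0.21 and 0.27. At 6 and 12 h the share of members called in either direction was no greater than that of the array as a whole. Called higher at 12 h were 3 of 22 members, against 11.5% of all probe sets.

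**Figure D1:**
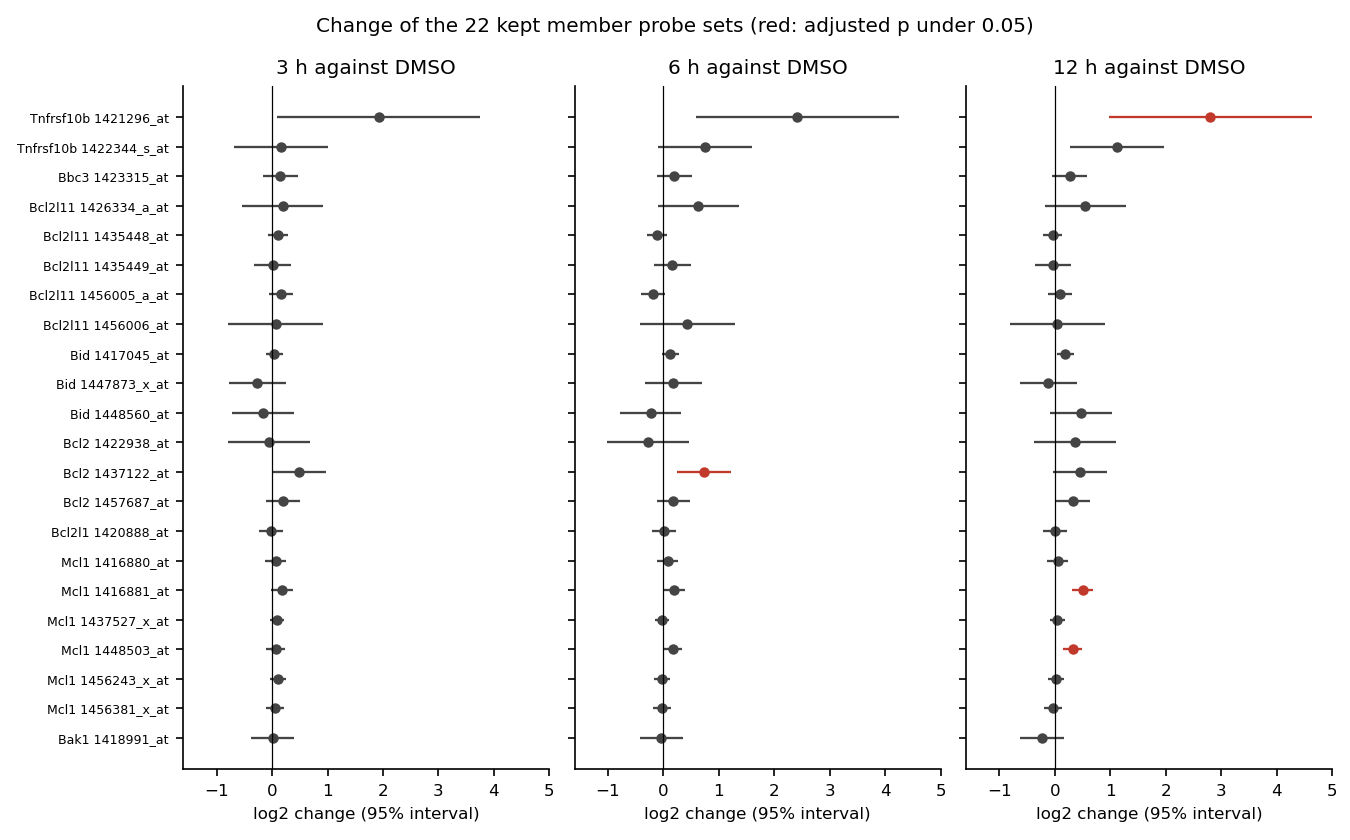
Log2 change against DMSO (horizontal axis) of each of the 22 tested member probe sets (rows) after 3, 6 and 12 h of berberine. Points are differences of group means of 3 arrays, bars their 95% limma intervals, and red marks an adjusted p under 0.05; red marks 0 probe sets at 3 h, 1 at 6 h and 3 at 12 h.

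Promoter sequences are shown for a pair of members. Mcl1 is shown as the gene with 2 probe sets whose rise at 12 h held under all 19 alternatives tried. Bcl2l11 is shown as a BH3-only gene that did not pass the test. Its window was picked for its match to a FOXO element, as Foxo1 message fell, so that match is not a finding. A link between Foxo1 and Bcl2l11 was not tested. RefSeq's promoter table (GRCm38.p6) had entries for 8 of the 10 genes, and the 250 bases before each annotated start were searched on both strands for 7 motifs. The Mcl1 window lies at chr3:95658471-95658720 on the plus strand, ends at the base before an annotated start and falls inside the full annotated span of the gene, so only the 29 bases around its match are shown (chr3:95658647-95658675). The first of 2 Bcl2l11 windows lies at chr2:128125788-128126037 on the plus strand, just before the annotated start of the gene. Capitals mark the matches, printed 5′ to 3′.
Mcl1: gagcgctccggCCGGAAGaggcgcggagt
Bcl2l11: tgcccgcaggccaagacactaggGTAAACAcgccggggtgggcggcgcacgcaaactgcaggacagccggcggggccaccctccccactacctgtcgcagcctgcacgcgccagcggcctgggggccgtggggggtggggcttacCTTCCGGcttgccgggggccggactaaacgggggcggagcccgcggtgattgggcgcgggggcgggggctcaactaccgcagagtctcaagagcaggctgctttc
In Mcl1 the capitals are 1 match to the ETS element CCGGAAG, at bases -63 to -57 from the start. In Bcl2l11 they are the FOXO element TGTTTAC on the minus strand, at bases -227 to -221, and CCGGAAG on the minus strand, at bases -105 to -99. Of 32851 promoter windows of this length, 6.91% held CCGGAAG and 3.17% held TGTTTAC. Neither of these windows held the cAMP response element TGACGTCA (1.55% of windows), the composite element TGATGNAA of C/EBP and ATF factors (3.45%), the AP-1 element TGANTCA (6.75%), the STAT element TTCNNNGAA (7.02%) or the E-box CACGTG (6.02%). Of the 13 start windows of the 8 genes, 5 held a match; the others were 2 of the 3 windows of Bbc3, with TGTTTAC and CACGTG, and that of Bax, with CACGTG. No match overlapped another. These letters are a description of the windows and say nothing about binding.

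Tnfrsf10b, the death receptor, was dim with DMSO and brighter with berberine. On probe set 1421296_at its log2 signals were 6.18, 0.98 and 5.21 with DMSO, 5.75, 6.41 and 5.98 at 3 h, 6.67, 6.35 and 6.60 at 6 h, and 7.27, 6.58 and 6.95 at 12 h. The 6 and 12 h arrays lay above all DMSO arrays, and DMSO replicate 2 lay far below the others. The call at 12 h (log2 change 2.81 ± 0.87 SE, adjusted p = 0.026) is given as a fold of at least 2.04, with dim DMSO values raised to the threshold. Without DMSO replicate 2 the log2 change was 1.24 (adjusted p = 0.0295). The call was lost without 12 h replicate 1 (adjusted p = 0.0793) or replicate 3 (0.0636), without the intensity trend (0.0989) and with only the 2 groups fitted (0.0754).

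The second Tnfrsf10b probe set, 1422344_s_at, was under the threshold on all 3 DMSO arrays. Its signals were 5.39, 5.24 and 5.76 with DMSO, 5.68, 5.99 and 5.18 at 3 h, 6.60, 5.78 and 6.28 at 6 h, and 7.05, 6.74 and 5.96 at 12 h. The 6 and 12 h arrays again lay above all DMSO arrays, and the 3 h arrays overlapped them. At 12 h the log2 change was 1.12 ± 0.40 SE (adjusted p = 0.0534, a fold of at least 1.75), which did not pass. It passed without the intensity trend (0.0399) and with dim values raised to the threshold (0.0301). Leaving out single arrays gave adjusted p of 0.025 to 0.205, and it passed without 12 h replicate 3 (0.025) or 3 h replicate 3 (0.0473). Both Tnfrsf10b probe sets entered the test through berberine arrays that reached the threshold, since at most 1 DMSO array did so on either; their direction is therefore a description and not independent support for a rise. At 6 h the folds were at least 1.55 and 1.36, and neither probe set passed (adjusted p = 0.0886 and 0.277).

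**Figure D2:**
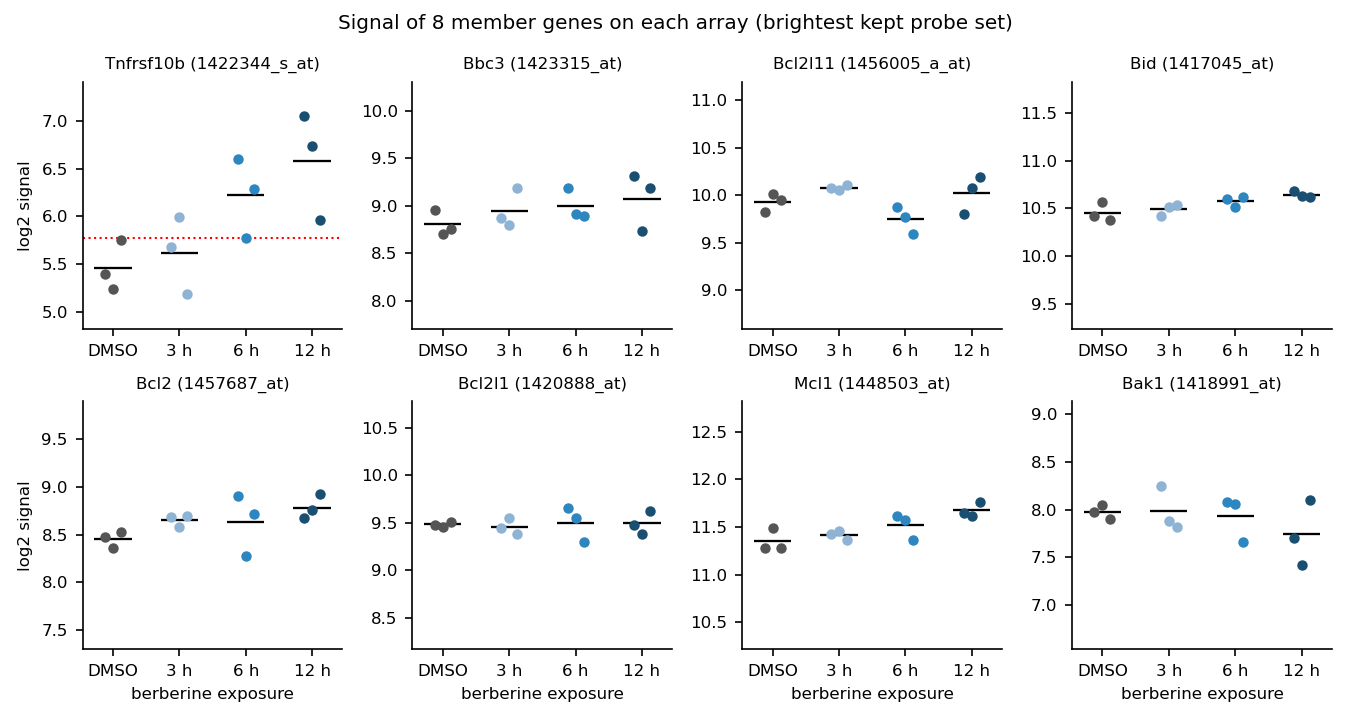
Log2 signal (vertical axis, each panel spanning the same range of 2.6) on each of the 12 arrays for the brightest tested probe set of the 8 genes. Points are arrays, black lines group means, and the red dotted line the detection threshold of 5.77; Tnfrsf10b crosses that line with berberine, while Bcl2l1 stays between 9.29 and 9.66 in all groups.

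Among the BH3-only genes, limma called 0 of the 9 tested probe sets of Bbc3, Bcl2l11 and Bid in any of the 6 comparisons. Over all probe sets the share called ranged from 0.998% (3 h against DMSO) to 23.3% (12 h against DMSO). Of the 54 tests on these 9 probe sets, which share arrays, 6 had an unadjusted p under 0.05. Bbc3, encoding PUMA, had signals of 8.96, 8.70 and 8.76 with DMSO, 8.87, 8.79 and 9.18 at 3 h, 9.19, 8.91 and 8.90 at 6 h, and 9.31, 8.73 and 9.18 at 12 h. The groups overlapped at every time, with 12 h replicate 2 among the low arrays. Its log2 change at 12 h was 0.27 (95% interval -0.05 to 0.58, adjusted p = 0.229), so larger rises than 0.58 lay outside the interval. Without 12 h replicate 2 it was 0.44 and passed (adjusted p = 0.0423).

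Bid links the death receptors to the mitochondrion, since caspase-8 cuts its product into the active form. On its brightest probe set, 1417045_at, signals were 10.42, 10.57 and 10.38 with DMSO and 10.68, 10.63 and 10.62 at 12 h. All 12 h arrays lay above all DMSO arrays, with a fold of 1.14 (95% interval 1.02 to 1.27), but the difference did not pass (adjusted p = 0.0731). Without DMSO replicate 2, the highest DMSO array, it passed (adjusted p = 0.0321). The other 2 Bid probe sets had log2 changes of 0.47 and -0.11 at 12 h (adjusted p = 0.223 and 0.799).

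Bcl2l11, encoding BIM, had 5 tested probe sets, which did not move one way at 6 or 12 h. At 3 h all 5 were higher than with DMSO, by 0.01 to 0.19 on the log2 scale, and did not pass (adjusted p = 0.604 to 0.993). Their log2 changes at 12 h spanned -0.04 to 0.55 (adjusted p = 0.289 to 0.96), and at 6 h -0.18 to 0.63. The brightest, 1456005_a_at, had signals of 9.82, 10.01 and 9.95 with DMSO, 10.07, 10.06 and 10.11 at 3 h, 9.87, 9.77 and 9.59 at 6 h, and 9.81, 10.08 and 10.19 at 12 h. The 3 h arrays lay above all DMSO and all 6 h arrays, and the 6 and 12 h arrays overlapped DMSO. From 3 to 6 h this probe set differed by -0.33 on the log2 scale (adjusted p = 0.13, unadjusted p = 0.00469). A second probe set, 1435448_at, differed in the same direction by -0.22 (adjusted p = 0.225). The other 3 went the opposite way, higher at 6 than at 3 h by up to 0.44, and did not pass either. At 12 h the 95% interval of 1456005_a_at ran from 0.92-fold to 1.24-fold. Pmaip1, encoding NOXA, reached the threshold on 0 of 12 arrays, with log2 signals of 0.00 to 3.49, and was not tested; no level can be read from it.

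Among the pro-survival genes, Mcl1, which encodes a short-lived protein that holds BAK and BIM, rose on 2 of its 6 probe sets. On 1416881_at the signals were 9.40, 9.41 and 9.42 with DMSO, 9.61, 9.59 and 9.56 at 3 h, 9.71, 9.71 and 9.37 at 6 h, and 9.92, 9.89 and 9.91 at 12 h. The DMSO arrays lay within 0.02 of each other, the 3 h and 12 h arrays lay above them without overlap, and 6 h replicate 3 fell below them. At 12 h this probe set was 1.42-fold higher (log2 change 0.50 ± 0.09 SE, adjusted p = 0.000794). It had log2 changes of 0.18 at 3 h (adjusted p = 0.482) and 0.19 at 6 h (adjusted p = 0.227, or 0.0401 without 6 h replicate 3).

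On 1448503_at, the brightest Mcl1 probe set other than those ending in _x_at, the signals were 11.28, 11.49 and 11.28 with DMSO, 11.43, 11.46 and 11.36 at 3 h, 11.62, 11.57 and 11.37 at 6 h, and 11.65, 11.61 and 11.76 at 12 h. Here too the 12 h arrays lay above all DMSO arrays, while the 3 and 6 h arrays overlapped them. On this probe set the signal was 1.25-fold higher at 12 h (log2 change 0.32 ± 0.08 SE, adjusted p = 0.00665). Both probe sets kept their call at 12 h under all 19 alternatives tried on them, with adjusted p of 0.000182 to 0.00472 for 1416881_at and 0.00238 to 0.0372 for 1448503_at.

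The other 4 Mcl1 probe sets did not pass at any time. At 12 h 1416880_at had a log2 change of 0.05 (adjusted p = 0.733), and 1437527_x_at, 1456243_x_at and 1456381_x_at had 0.05, 0.02 and -0.03 (adjusted p = 0.62, 0.853 and 0.841). The suffix _x_at marks probe sets that can bind transcripts of several genes. For 1456381_x_at the 95% interval ended at 1.09-fold, below the 1.24-fold at which that of 1416881_at began. Within each array, 1416881_at minus 1456381_x_at was -1.86 to -1.64 with DMSO and -1.28 to -1.23 at 12 h, a difference of 0.53. Over all 6 pairings of 1416881_at or 1448503_at with an _x_at probe set these differences spanned 0.27 to 0.53. The pairings were chosen after the changes of these probe sets were seen, so they are a description with no test. For 1416880_at they were 0.00 to 0.08. As the mean of its 6 probe sets, Mcl1 had a log2 change of 0.15 at 12 h (adjusted p = 0.0943), which did not pass.

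**Figure D3:**
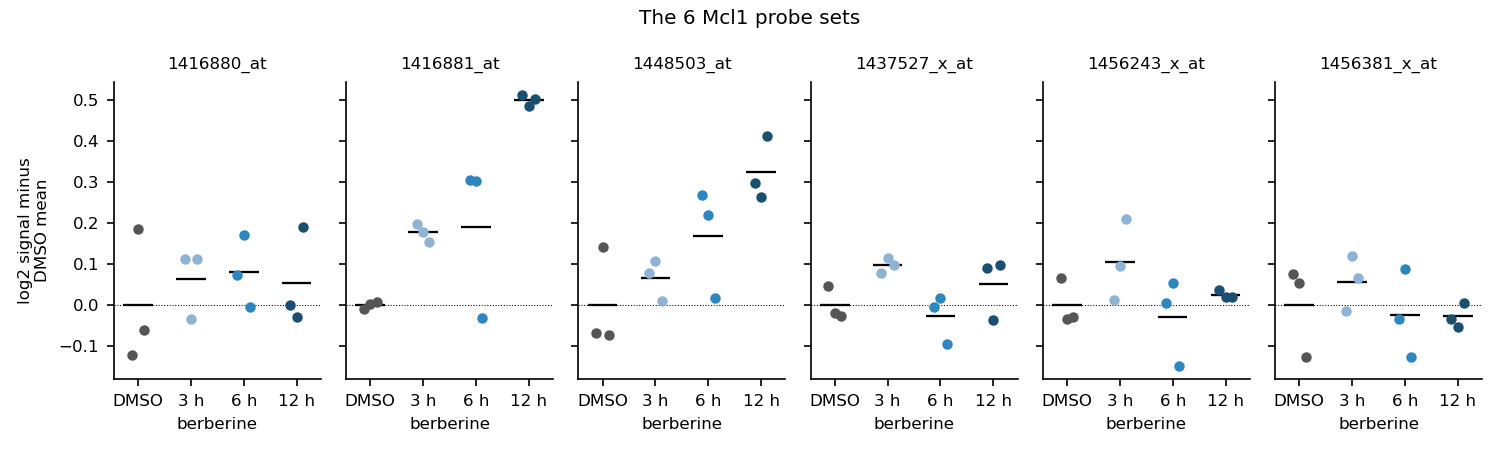
Log2 signal minus the DMSO mean (vertical axis) on each of the 12 arrays for the 6 Mcl1 probe sets, by group. Points are arrays and lines group means; 1416881_at and 1448503_at are higher at 12 h (mean differences of 0.50 and 0.32), while the other 4 have differences of -0.03 to 0.05.

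Between berberine times, the 2 rising Mcl1 probe sets were the only members called. From 3 to 12 h, where 13.7% of all probe sets were called (6.04% higher), they differed by 0.32 (1416881_at, adjusted p = 0.0271) and 0.26 (1448503_at, adjusted p = 0.0384) on the log2 scale, with no overlap between the groups. Both calls were lost on leaving out any 1 of the 6 arrays of these 2 groups, with adjusted p of 0.063 to 0.0776 for 1416881_at and 0.0555 to 0.137 for 1448503_at, and without the intensity trend (0.0522 and 0.117); that of 1448503_at was also lost with no filter on dim signals (0.0581). From 3 to 6 h and from 6 to 12 h limma called 0 of 22 members (2 and 3 at an unadjusted p under 0.05), against 1.43% and 3.78% of all probe sets. The genes whose signal over the 12 arrays was most like that of Mcl1 on 1448503_at, out of 11537 ranked, were Nsmce2 (Pearson r = 0.94), Slc7a2 (r = 0.92) and Stam (r = 0.92), as a description over arrays that share these groups.

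Bcl2, the founding pro-survival gene, had 3 tested probe sets. On 1437122_at the signals were 6.36, 6.47 and 6.32 with DMSO, 6.70, 6.999 and 6.91 at 3 h, 7.36, 7.17 and 6.85 at 6 h, and 6.62, 7.05 and 6.83 at 12 h. All 9 berberine arrays lay above the 3 DMSO arrays, with means highest at 6 h. It was 1.67-fold higher at 6 h (log2 change 0.74 ± 0.23 SE, adjusted p = 0.0495), with log2 changes of 0.49 at 3 h (adjusted p = 0.419) and 0.45 at 12 h (adjusted p = 0.186). The 6 h call lay at the threshold and was lost in 15 of 19 alternatives, among them without any 1 DMSO array (0.12, 0.078 and 0.113 without replicates 1, 2 and 3) and without 6 h replicate 1 (0.163) or 2 (0.129). It was also lost with the replicate number as a block (0.0643) and after quantile normalization (0.0537).

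The brightest Bcl2 probe set, 1457687_at, did not pass. Its signals were 8.47, 8.36 and 8.53 with DMSO, 8.69, 8.58 and 8.70 at 3 h, 8.91, 8.27 and 8.72 at 6 h, and 8.68, 8.75 and 8.93 at 12 h. The 3 and 12 h arrays lay above all DMSO arrays, and 6 h replicate 2 lay below them. At 12 h it was 1.26-fold the DMSO level (95% interval 1.02 to 1.55, adjusted p = 0.11). Without 6 h replicate 2 this 12 h change passed (adjusted p = 0.0476). The third probe set, 1422938_at, had log2 changes of -0.05, -0.28 and 0.36 at the 3 times and overlapped DMSO at each.

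Bcl2l1, encoding the pro-survival BCL-XL, differed little between groups. On 1420888_at its signals were 9.48, 9.46 and 9.51 with DMSO, 9.45, 9.55 and 9.38 at 3 h, 9.66, 9.55 and 9.29 at 6 h, and 9.48, 9.38 and 9.62 at 12 h. All groups overlapped. At 12 h the fold was 1.01 (95% interval 0.87 to 1.17, adjusted p = 0.958), so changes beyond 1.17-fold lay outside the interval. Of the effectors, Bak1 had signals of 7.97, 8.05 and 7.90 with DMSO, 8.25, 7.88 and 7.81 at 3 h, 8.09, 8.06 and 7.66 at 6 h, and 7.70, 7.42 and 8.10 at 12 h, also with overlap at every time. Its 12 h mean was 0.85-fold the DMSO mean (95% interval 0.65 to 1.12, adjusted p = 0.426). Its second probe set reached the threshold on 1 of 12 arrays.

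The rest of the pathway was read from 10 lists of cell death genes, with the brightest tested probe set for each gene, in the fit over all probe sets. Outside the members they held 75 genes, of which 58 were tested. At 3 h 5 of these 58 were called, all higher (8.62%, against 1.34% of 12136 genes, 0.816% higher and 0.527% lower). At 6 h 5 rose and 8 fell (22.4%, against 12.4% of all genes, 6.3% higher and 6.1% lower), and at 12 h 5 rose and 12 fell (29.3%, against 26.5% of all genes, 12.8% higher and 13.7% lower). The lists include stress genes known to rise in these data, so these shares are a description. The 3 h count was 3 without the intensity trend or without 3 h replicate 2, and the 6 h count was 7 without the trend and 8 without DMSO replicate 1. The 12 h count of 17 was 12 without the trend and 15 to 18 without single arrays.

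**Figure D4:**
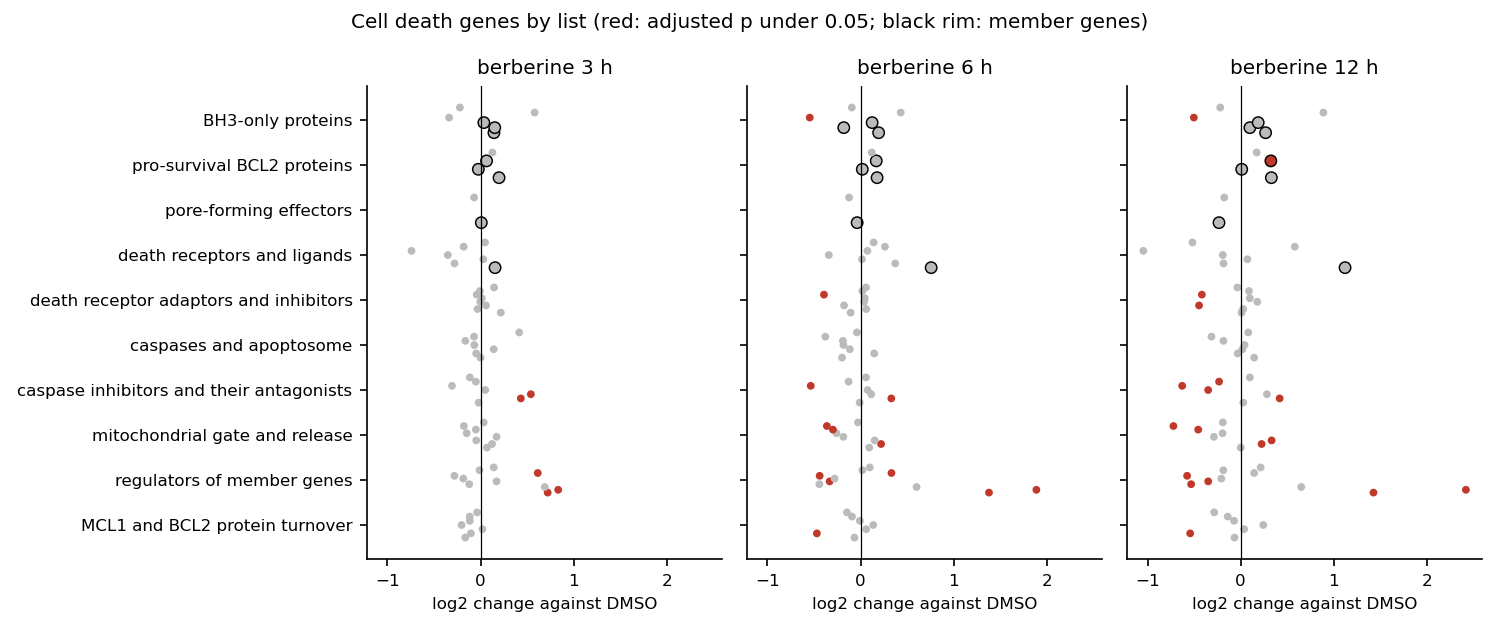
Log2 change against DMSO (horizontal axis) of the tested genes of 10 cell death lists (rows) after 3, 6 and 12 h of berberine. Each point is 1 gene, red marks an adjusted p under 0.05 and a black rim marks the member genes; the points farthest right at 12 h are Ddit3 (2.42) and Atf4 (1.43) among the regulators.

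Of the 10 tested regulators of the member genes, 2 rose and 3 fell at 12 h. Ddit3, encoding CHOP, rose 1.78-fold, 3.70-fold and 5.34-fold at 3, 6 and 12 h, and Atf4, its upstream activator, 1.65-fold, 2.60-fold and 2.69-fold. Jun, an AP-1 factor, rose 1.53-fold at 3 h and 1.26-fold at 6 h (adjusted p = 0.00054 and 0.00869) and had a log2 change of 0.14 at 12 h (adjusted p = 0.185). Its second probe set, 1448694_at, also rose at 3 h (log2 change 0.53, adjusted p = 0.0163) but had 0.06 at 6 h (adjusted p = 0.81) and -0.13 at 12 h (adjusted p = 0.405). Myc fell by 0.57 on the log2 scale at 12 h (adjusted p = 0.000239). The FOXO genes also fell at 12 h, Foxo1 by 0.53 (adjusted p = 0.00993) and Foxo3 by 0.35 (adjusted p = 0.0178) on its brightest probe set. Leaving out DMSO replicate 3 (adjusted p = 0.0584) or 12 h replicate 1 (0.0596) ended the call of Foxo1, and leaving out DMSO replicate 2 (0.0813) or 12 h replicate 3 (0.0925) that of Foxo3; both were also lost without the intensity trend (0.0536 and 0.0705). The other 2 Foxo1 probe sets fell too, by 0.63 and 0.60 (adjusted p = 0.00127 and 0.0118), while the other Foxo3 probe set, 1434832_at, had log2 changes of -0.06 at 6 h and -0.03 at 12 h (adjusted p = 0.826 and 0.897). Set beside these, Bbc3 and Bcl2l11 did not pass at any time and the rise of Tnfrsf10b rested on signals near the threshold.

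Among the other BH3-only genes, Bad, whose product neutralises BCL2 and BCL-XL, was 1.46-fold lower at 6 h (adjusted p = 0.013) and 1.42-fold lower at 12 h (adjusted p = 0.0098). Its second probe set also fell at 12 h (log2 change -0.52, adjusted p = 0.0263). The 6 h call of Bad was lost without DMSO replicate 1 (0.0568) or 2 (0.0599) and the 12 h call without DMSO replicate 2 (0.0532) or 12 h replicate 3 (0.0571), and neither held without the intensity trend (0.0739 and 0.0506). Bmf, a BH3-only gene of detached cells, had a log2 change of -0.22 at 12 h (adjusted p = 0.279). Bcl2l2, encoding BCL-W, and Bok, a relative of the effectors, did not pass (0.17 and -0.18 at 12 h, adjusted p = 0.195 and 0.12).

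Of the death receptors and their ligands other than Tnfrsf10b, 6 of 11 were tested and limma called 0 at any time (0, 0 and 1 at an unadjusted p under 0.05 at 3, 6 and 12 h). Of all genes, 1.34%, 12.4% and 26.5% were called at these times. Tnfrsf1a, the main receptor for TNF, had a log2 change of 0.07 at 12 h (adjusted p = 0.412) and Fas, the receptor for FAS ligand, -0.18 (adjusted p = 0.592). The ligand genes Tnf, Fasl and Tnfsf10, the last encoding TRAIL, did not pass the filter on dim signals. Of 8 tested adaptors and inhibitors of receptor signalling, 2 fell at 12 h. Cflar, whose product FLIP blocks caspase-8, was 1.33-fold lower (adjusted p = 0.00822), and Ripk3, a kinase of necroptosis, 1.36-fold lower (adjusted p = 0.00873). The other 3 Cflar probe sets had log2 changes of -0.26, -0.15 and 0.06 at 12 h (adjusted p = 0.523, 0.68 and 0.932). Casp8 and Fadd, the core of the receptor complex, had log2 changes of 0.09 and 0.01 (adjusted p = 0.481 and 0.983).

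Downstream of the mitochondrion, limma called 0 of 7 tested genes of the caspases and apoptosome list at any time (1, 3 and 2 at an unadjusted p under 0.05 at 3, 6 and 12 h), each on its brightest probe set. Over all genes the shares called were 1.34%, 12.4% and 26.5% at these times. The 7 tested genes included Casp9 and Apaf1 (log2 changes of 0.02 and 0.14 at 12 h, adjusted p = 0.956 and 0.503). Cycs, encoding cytochrome c, had a log2 change of -0.03 at 12 h (adjusted p = 0.791) on its brightest probe set, but 2 of its other 3 were called lower, 1422484_at by 0.42 and 1445484_at by 1.19 on the log2 scale (adjusted p = 9.1e-05 and 0.00144).

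Of the 7 tested genes of the caspase inhibitors and their antagonists, 2 rose at 3 h, 1 rose and 1 fell at 6 h, and 1 rose and 3 fell at 12 h. Birc2, encoding the ubiquitin ligase cIAP1, was 1.35-fold higher at 3 h (adjusted p = 0.0115), 1.26-fold at 6 h (adjusted p = 0.0135) and 1.34-fold at 12 h (adjusted p = 0.000987). Its 3 h call was lost without 3 h replicate 2 (0.0753), without the intensity trend (0.0871) and with only the 2 groups fitted (0.0575). Its relative Birc3 was higher at 3 h by 0.54 on the log2 scale (adjusted p = 0.0254), a call lost without any 1 of the 3 h arrays or of DMSO replicates 1 and 3 (0.0649 to 0.138) and without the intensity trend (0.153). Birc6, a large caspase inhibitor, was 1.55-fold lower at 12 h (adjusted p = 0.000372) on its brightest probe set, while its other 3 probe sets had log2 changes of 0.03 to 0.19 and did not pass. Birc5, a mitotic inhibitor of apoptosis, was 1.27-fold lower at 12 h (adjusted p = 0.0106), and Xiap, the inhibitor of caspase-9, had a log2 change of 0.03 (adjusted p = 0.833) on its brightest probe set. Another Xiap probe set, 1456088_at, was called higher (log2 change 0.40, adjusted p = 0.04), and 1450232_at had 0.69 (adjusted p = 0.178). Diablo, whose product SMAC antagonises these inhibitors, was 1.17-fold lower at 12 h (adjusted p = 0.0324). That call was lost without DMSO replicate 1 (0.147) or 12 h replicate 1 (0.106) or 3 (0.0973), without the intensity trend (0.0592), with no filter on dim signals (0.0551) and with only the 2 groups fitted (0.0691).

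Genes of the mitochondrial membrane and intermembrane space fell in 2 and rose in 2 of 8 cases at 12 h. Bnip3, a BH3-like mitophagy receptor that is also a hypoxia target, fell from 14.14 to 13.42, or 1.65-fold (adjusted p = 6.19e-06). Aifm1, the apoptosis-inducing factor, was 1.37-fold lower (adjusted p = 0.000698). The channel gene Vdac3 rose 1.26-fold (adjusted p = 0.00125) and Vdac2 1.17-fold (adjusted p = 0.0164); the latter call was lost without DMSO replicate 1 (0.0905) or 2 (0.0536) or 12 h replicate 2 (0.0727), and without the intensity trend (0.0695). Vdac1 had a log2 change of 0.00 (adjusted p = 0.991) on its brightest probe set, while 1437192_x_at was called higher (0.23, adjusted p = 0.00898). Of the 7 tested genes that govern turnover of MCL1 and BCL2 or bind BCL2, 1 fell. Usp9x, the deubiquitinase that stabilises MCL1, was 1.46-fold lower at 12 h (adjusted p = 0.000388) on its brightest probe set and fell on another, 1428194_at (log2 change -0.42, adjusted p = 0.012), but 1450039_at had a log2 change of 0.63 (adjusted p = 0.000482). Huwe1 and Fbxw7, ubiquitin ligase genes of MCL1, had log2 changes of -0.07 and 0.04 (adjusted p = 0.656 and 0.866).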

How the data were processed

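Per the submitters' processing notes the authors used MAS5 (its version is not given), and the deposited values are log2 signals, 1 column for each of 12 arrays. MAS5 multiplies each array by 1 factor, and on every array the linear values had a 2% trimmed mean of 500.004. Such scaling corrects no bias that depends on brightness, dim log2 values scatter widely, and 12 arrays limit the precision. Detection calls and scanner files were not used here.

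Of 45037 non-control probe sets, 25053 reached the median of their values, 5.77, on at least 3 arrays. Of the 45037, 34945 had 1 gene symbol, 932 several and 9160 none in the platform annotation; Entrez identifiers updated 0 symbols. A gene is represented by its brightest tested probe set, an _x_at one only where it had no other. limma 3.58.1 in R 4.3.3 fitted 4 group means to the 12 arrays (residual degrees of freedom 8, with intensity trend, two-sided), with Benjamini-Hochberg adjustment over all 25053. Folds are ratios of geometric means. Where 1 group's mean was under the threshold, its dim values were raised to it. The fold is then a bound for the dim values only and carries no sampling error. The fit was tested on simulated data. Figures used Python 3.11.15 and matplotlib 3.10.9.

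All members are named with every probe set, and up to 4 called genes from each list; genes named without a call were picked for their role after their values were seen. The members and lists were chosen with earlier results of these data known.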

Additional observations from a re-analysis of the deposited data

Results flagged for a closer look

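On 2 of the 6 Mcl1 probe sets the signal differed between 12 and 3 h of berberine. Probe set 1416881_at was higher at 12 than at 3 h by 0.32 on the log2 scale (adjusted p = 0.0271, limma), and 1448503_at by 0.26 (adjusted p = 0.0384), in 3 of 3 arrays at 12 h against all 3 arrays at 3 h. Both calls were lost on leaving out any 1 of these 6 arrays (adjusted p of 0.0555 to 0.137), and the other 4 probe sets were not called. With no DMSO arrays matched to each time, berberine and time in culture cannot be told apart. Groups of 3 arrays are too small for the search for single outlying samples, which was not made.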

How the results depend on the processing

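Members called at 6 h fell from 1 to 0 with quantile normalization, with no filter on low values, with the replicate block and with only the 2 groups compared, and were 0 to 2 on leaving out single arrays. Those called at 12 h, 3 in the main fit, were 2 to 4 on leaving out single arrays. They were 2 with only the 2 groups compared or with all 12 arrays required at the threshold, and 4 with dim values raised to it. Members called between 12 and 3 h fell from 2 to 0 without the intensity trend, to 1 with no filter, and to 0 to 2 without single arrays. Those differing by the F test were 1 to 2 without single arrays (1 without DMSO replicate 3 or 12 h replicate 2 or 3), against 2. With 1 probe set a gene, member genes called at 12 h were 2 in place of 1. The one added, Tnfrsf10b, was tested only through its berberine arrays. With the mean of a gene's probe sets the count stayed at 1, but the gene changed. Mcl1 was then not called (adjusted p = 0.0943), and Tnfrsf10b was (log2 change 1.96, adjusted p = 0.0203), with the same limit. Pathway genes called were 3 at 3 h, 7 at 6 h and 12 at 12 h without the intensity trend. Without single arrays they were 3 to 5, 8 to 14 and 15 to 18. These alternatives were chosen after seeing the data. The cause was not tested. The fits without 1 array assume that a group of 2 varies like the others.

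Same-numbered arrays did not deviate together: their deviations from the group means correlated at -0.09 to 0.05 over 18 pairs, and 3 of 12 arrays were closest to their own number. The replicate block moved the members called at 6 h from 1 to 0 and left the 3 at 12 h.

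Of 62 uncalled changes against DMSO, 21 turned sign under some alternative, all within 0.18 of 0. After quantile normalization these were -0.0049 for Bcl2l11 1435449_at at 3 h, -0.041 for Bcl2l11 1456006_at at 12 h, -0.013 for Bak1 1418991_at at 3 h. On leaving out single arrays the ranges at 3 h were -0.031 to 0.37 for Tnfrsf10b 1422344_s_at, -0.16 to 0.14 for Bcl2l11 1435449_at, -0.24 to 0.34 for Bcl2l11 1456006_at, -0.00074 to 0.092 for Bid 1417045_at, -0.32 to 0.042 for Bid 1448560_at, -0.21 to 0.073 for Bcl2 1422938_at, -0.067 to 0.015 for Bcl2l1 1420888_at, -0.0076 to 0.094 for Mcl1 1456381_x_at and -0.13 to 0.093 for Bak1 1418991_at. At 6 h they were -0.011 to 0.29 for Bid 1447873_x_at, -0.059 to 0.12 for Bcl2l1 1420888_at, -0.051 to 0.0058 for Mcl1 1437527_x_at, -0.072 to 0.029 for Mcl1 1456243_x_at, -0.089 to 0.027 for Mcl1 1456381_x_at and -0.11 to 0.10 for Bak1 1418991_at. At 12 h they were -0.077 to 0.0035 for Bcl2l11 1435449_at, -0.23 to 0.31 for Bcl2l11 1456006_at, -0.35 to 0.051 for Bid 1447873_x_at, -0.052 to 0.067 for Bcl2l1 1420888_at, -0.016 to 0.15 for Mcl1 1416880_at and -0.092 to 0.0092 for Mcl1 1456381_x_at.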
